A study of Homo sapiens with 15 samples.

Results

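The 10 genes described here encode transcription factors of blood stem, progenitor and myeloid cells: GATA2, RUNX1, MYB, MEIS1, ERG, SPI1, CEBPA, CEBPB, IKZF1 and BCL11A. They were chosen by symbol from the 60649 genes of the count table, and all 10 were found. Messenger RNA was sequenced from K562, an established line of human chronic myeloid leukemia cells with the BCR-ABL fusion kinase. There were 15 libraries in 5 groups of 3 biological replicates, either untreated or given martinostat at 0.15, 0.25, 0.5 or 1 µM for 24 h. Martinostat inhibits histone deacetylases (HDACs), the enzymes that remove acetyl groups from histones and other proteins. All groups are the same cell line, so the values hold for K562 alone.

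Each of these factors binds DNA and sets which lineage genes a blood cell transcribes. GATA2, RUNX1, MYB, MEIS1 and ERG keep stem and progenitor cells in their state and are recurrently altered in leukemia. SPI1 (the protein PU.1) and the C/EBP factors CEBPA and CEBPB direct progenitors towards granulocytes and macrophages. IKZF1 (Ikaros) is a zinc finger factor of lymphoid development that works with HDAC-containing repressor complexes, and BCL11A is the zinc finger repressor that silences fetal globin genes in adult red cells.

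The factors did not move together. At 1 µM, MYB, SPI1 and IKZF1 were lower than in untreated cells by 6.17-fold, 2.65-fold and 9.69-fold, whereas CEBPA, CEBPB, MEIS1, ERG and BCL11A were higher by 4.15-fold, 4.16-fold, 2.38-fold, 4.58-fold and 19.8-fold, although the call of ERG was lost under 14 of 26 alternative analyses. ERG and BCL11A had only 4 and 14 counts over the 3 untreated libraries. This left little room for a lower call, and their folds rest on these few counts. SPI1 and MYB were higher at 0.15 µM and lower at 1 µM, and RUNX1 peaked at 0.25 µM. GATA2 was not called against untreated cells at any dose, although it was called higher at 0.15, 0.25 and 1 µM under some other scalings. Levels are CPM, counts relative to the library size after scaling with the TMM method, and differences are log2 fold changes ± SE from edgeR's quasi-likelihood test. Called means that the Benjamini-Hochberg adjusted p over all 23711 genes tested was under 0.05.

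The libraries held 23755510 to 32805574 counts. Pearson's r of log2 CPM within a group was 0.957 to 0.987. Replicate 3 at 0.25 µM and replicate 3 at 0.5 µM stood apart on principal component 3, at 70.1 and 75.4, where the other libraries were at 16.0 or lower, and results that rest on them are given with and without them. Most genes tested differed from untreated cells, so a call by itself sets a factor little apart from other genes. Erythroid markers summed to 1644 to 1735 CPM in untreated libraries and 129 to 148 CPM at 1 µM, where 4 of 5 were called lower. The remaining 1, the embryonic globin HBE1, was scarce in these counts and was called higher (edgeR adjusted p = 0.049). Other genes of the same strand lie over 90.01% of its exon bases, so its count and this call may not reflect its RNA. All 5 erythroid markers were detected in every group. Megakaryocyte markers rose from between 6.34 and 7.11 to between 36.2 and 40.1 summed CPM, with 3 of 6 markers at 0 counts in untreated cells, and ITGA2B and ITGB3, the subunits of the platelet fibrinogen receptor, were called higher at both 0.15 and 1 µM. Monocyte markers summed to 7.30 to 9.35 CPM in untreated and 25.0 to 32.7 CPM at 1 µM, a sum led by CSF1R, while LYZ, which led it in untreated cells, was called lower, and lymphoid markers summed to 2.82 to 5.24 CPM and 9.33 to 10.5 CPM, with 2 of 5 lymphoid markers at 0 counts in untreated cells. In bulk RNA a smaller share of cells that express a gene and less of its RNA per cell cannot be told apart, and the part of these markers in the changes of the factors was not tested.

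The starts of CEBPA, CEBPB and MYB are shown because both C/EBP genes were higher and MYB was lower at 0.5 and 1 µM. Each sequence is the 250 bases before a RefSeq start on GRCh38.p14, read 5′ to 3′ on the strand of the gene. Capitals mark 4 short motifs on either strand, which did not overlap each other in these windows: the CCAAT box (CCAAT), the GC box (GGGCGG), the GATA motif (GATAA) and the TATA box (TATAAA). CEBPA lies at chr19:33302535-33302784 on the minus strand, CEBPB at chr20:50190580-50190829 on the plus strand and MYB at chr6:135181058-135181307 on the plus strand.
CEBPA: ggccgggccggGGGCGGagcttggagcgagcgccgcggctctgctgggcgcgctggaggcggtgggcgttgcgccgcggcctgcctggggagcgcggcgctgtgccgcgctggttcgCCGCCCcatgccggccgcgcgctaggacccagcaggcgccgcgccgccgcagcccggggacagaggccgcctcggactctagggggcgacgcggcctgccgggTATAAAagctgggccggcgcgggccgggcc
CEBPB: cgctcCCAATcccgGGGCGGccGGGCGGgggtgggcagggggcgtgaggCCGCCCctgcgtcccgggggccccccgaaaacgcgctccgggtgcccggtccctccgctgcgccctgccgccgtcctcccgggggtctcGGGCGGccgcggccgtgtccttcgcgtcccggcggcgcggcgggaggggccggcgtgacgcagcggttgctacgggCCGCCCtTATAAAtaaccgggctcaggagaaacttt
MYB: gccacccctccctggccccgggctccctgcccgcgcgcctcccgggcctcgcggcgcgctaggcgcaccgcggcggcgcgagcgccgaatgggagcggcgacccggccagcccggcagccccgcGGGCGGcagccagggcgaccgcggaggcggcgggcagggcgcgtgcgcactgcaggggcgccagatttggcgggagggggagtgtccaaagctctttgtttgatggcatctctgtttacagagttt
A TATA box stood close to the start in CEBPA and CEBPB and in no other of the 9 factors with an entry, and 10.7% of all 35116 promoters of this length held one. A GC box was found in 7 of 9 factors and in 42.6% of all promoters, a CCAAT box in 5 of 9 and 32%, and a GATA motif in 1 of 9, ERG, and 20.4%. The 9 windows are not alike: the start used for RUNX1 lies 160603 bases from its GENCODE canonical start. Those of IKZF1 and BCL11A overlap exons of the same gene. In 8 of 9 factors the ratio of observed to expected CpG was at least 0.6, as in 47.5% of all promoters. ERG was the exception, at 0.260. These letters describe the windows and do not show that a factor binds there.

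**Figure D1:**
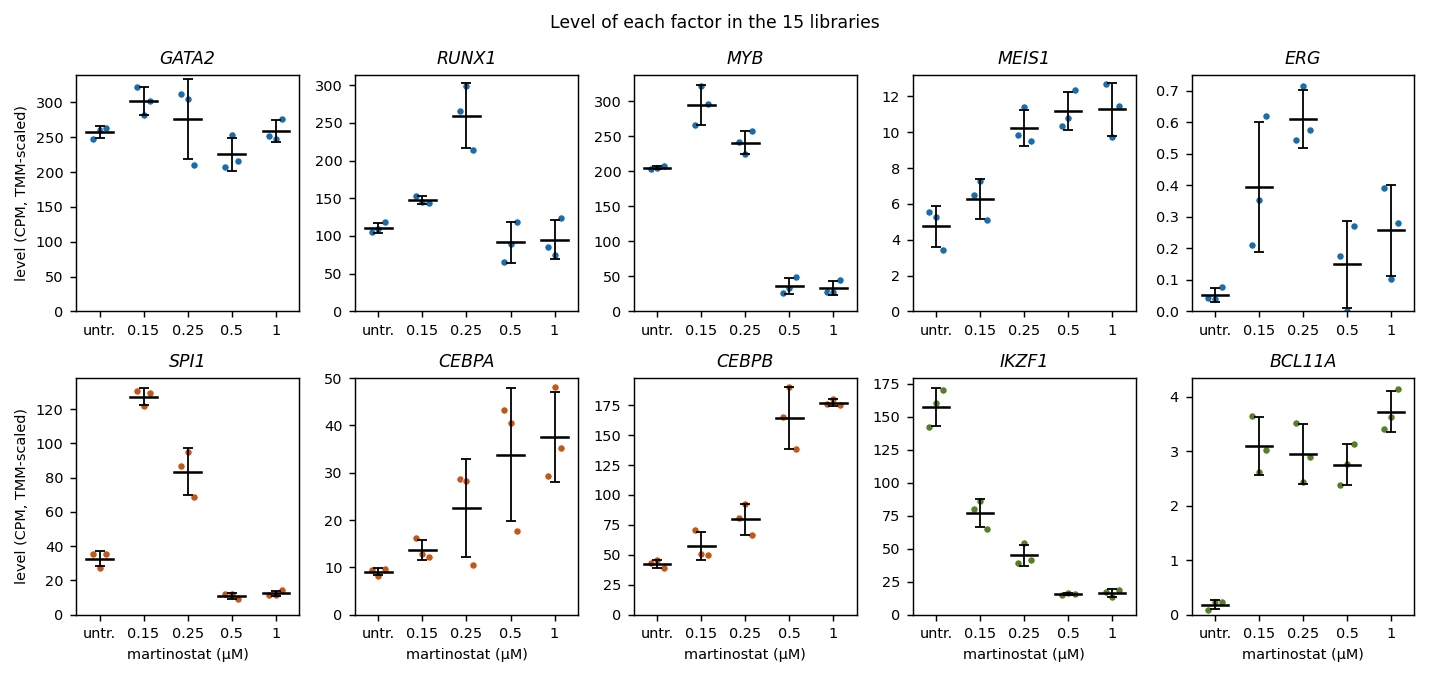
Level of each factor in every library, in CPM on TMM-scaled library sizes, on linear axes that start at 0, by martinostat dose in µM (untr. is untreated). Points are the 3 replicates of a group, horizontal bars the mean and vertical bars the SD. SPI1 sits between 122 and 131 CPM at 0.15 µM and between 8.86 and 11.9 CPM at 0.5 µM, whereas GATA2 stays between 207 and 322 CPM throughout.

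Of the 10 factors, 6 were called at 0.15 µM against untreated cells, where 51.2% of all genes tested were called. Of these 5 were higher, beside 31.9% of all genes, and 1 was lower, beside 19.4%. The libraries of 9 factors did not overlap the untreated ones, as for 63.2% of all genes. At 0.25 µM 8 were called, beside 62.3% of all genes, with 7 higher and 1 lower (37.4% and 24.8% of all genes) and 9 without overlap (67.5%). At 0.5 µM 7 were called, beside 66.9%, with 4 higher and 3 lower (39.4% and 27.6%) and 7 without overlap (69.9%). At 1 µM 8 were called, beside 66.2%, with 5 higher and 3 lower (38.8% and 27.5%) and 8 without overlap (74.9%). The shares of factors called were thus near those of all genes, and it is the size and order of the changes that differ between the factors. Their median log2 fold change was 0.47, 1.17, 0.52 and 0.63 from 0.15 to 1 µM, beside 0.28, 0.32, 0.34 and 0.32 over all genes tested. Over the 10128 genes with a mean of 10 CPM or more the medians were negative, at -0.28, -0.40, -0.37 and -0.39. A test over the 5 groups called 9 of the 10 factors, all but GATA2 (adjusted p = 0.162), and 73.6% of all genes. All 10 passed the filter on low counts, ERG and BCL11A only through treated libraries. Neither reached 10 counts in an untreated library, which left little room for a lower call. Both are among the higher calls at 0.15, 0.25 and 1 µM, and BCL11A also at 0.5 µM.

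The direction of small changes depended on the scaling. With library totals in place of TMM factors, the median over all genes moved to between 0.64 and 0.85 at the 4 doses, and at 0.15 µM all 10 factors were called, 9 higher and 1 lower. TMM factors from genes of 10 CPM or more gave the same 9 higher and 1 lower at 0.15 µM with medians of 0.54 to 0.75, and with relative log expression (RLE) factors 3 factors were called higher and 1 lower there, with medians of 0.23 to 0.42. Of all genes called at 0.15 µM, 62.2% were higher under TMM, 81.9% under library totals, 75.8% under TMM factors from genes of 10 CPM or more and 59.5% under RLE. At 1 µM these shares were 58.5%, 69.3%, 70.1% and 60.3%. No called change of a factor at 1 µM against untreated cells reversed under any of these scalings.

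GATA2, a zinc finger factor needed for blood stem cells (chr3:128479427-128493201, minus strand), had 247, 261 and 263 CPM in the untreated libraries. It had 322, 281 and 302 CPM at 0.15 µM, 313, 305 and 210 CPM at 0.25 µM, 207, 253 and 216 CPM at 0.5 µM and 252, 248 and 276 CPM at 1 µM. The libraries at 0.15 µM lay above the untreated ones, and those at the 3 higher doses overlapped them. Its log2 fold changes were 0.23 ± 0.15, 0.10 ± 0.15, -0.19 ± 0.15 and 0.01 ± 0.15 from 0.15 to 1 µM, with edgeR adjusted p of 0.22, 0.579, 0.284 and 0.96. At 1 µM the 95% interval of the log2 difference ran from -0.31 to 0.33. GATA2 was called higher at 0.15, 0.25 and 1 µM with library totals (0.59, 0.61 and 0.36). The same 3 doses were called with TMM factors from genes of 10 CPM or more (0.49, 0.51 and 0.39) and on both FPKM scales by limma. With at least 10 counts in every library it was called at 0.15 and 0.25 µM (0.41 and 0.38). At 0.5 µM its sign turned to 0.19 with library totals, so its direction depended on the scaling. Without replicate 3 of both the 0.25 and 0.5 µM groups it was called at 0.25 µM (0.29, adjusted p = 0.0344). It was also called between 0.25 and 0.5 µM without replicate 3 at 0.25 µM (-0.46, adjusted p = 0.0232), beside 0.166 with all libraries.

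GATA1, the relative that takes the place of GATA2 as red cells and megakaryocytes mature, behaved differently. It averaged 328 ± 5.92 CPM (SD, n = 3) in untreated cells and 313 ± 29.3 and 173 ± 29.1 CPM at 0.15 and 0.25 µM, but 15.5 ± 1.23 and 18.9 ± 3.08 CPM at 0.5 and 1 µM. Its log2 fold change at 1 µM was -4.12 ± 0.17 (edgeR adjusted p = 4.58e-13). Per kilobase of merged exons the GATA2 level was 0.240, 0.247 and 0.257 of the GATA1 level in untreated libraries. This ratio was 0.330, 0.311 and 0.277 at 0.15 µM and 0.485, 0.574 and 0.453 at 0.25 µM. It reached 4.17, 5.64 and 4.11 at 0.5 µM and 5.21, 3.78 and 4.26 at 1 µM. On this scale GATA1 was thus the more abundant of the pair up to 0.25 µM, and GATA2 was the more abundant at 0.5 and 1 µM in all 6 libraries. The order at the lower doses depends on the length used, since GATA2 averaged 276 CPM at 0.25 µM before division by length. GATA2-AS1, the antisense RNA that shares 1.59% of the exon bases of GATA2, was lower at 1 µM by -1.82 ± 0.15 (adjusted p = 2.86e-09).

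**Figure D2:**
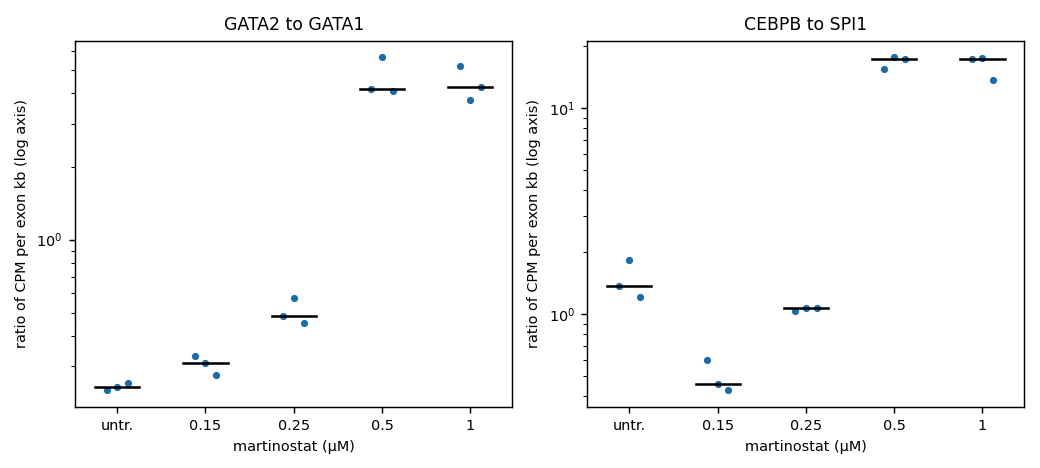
Ratio of the levels of 2 genes in each library, both as CPM per kilobase of merged exons, on log axes, by martinostat dose in µM (untr. is untreated). Points are the 3 libraries of a group and bars their median. Both ratios step up between 0.25 and 0.5 µM, GATA2 to GATA1 from at most 0.574 to at least 4.11 and CEBPB to SPI1 from at most 1.07 to at least 15.5.

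RUNX1, the core-binding factor subunit required for definitive blood formation (chr21:34787801-36004667, minus strand), had 105, 109 and 118 CPM in untreated libraries. At 0.15 µM it had 153, 145 and 144 CPM and at 0.25 µM 265, 299 and 214 CPM. At 0.5 µM it had 65.8, 89.4 and 119 CPM and at 1 µM 85.6, 74.8 and 124 CPM. The level thus peaked at 0.25 µM, where all 3 libraries exceeded every other library of the series, and at the 2 higher doses 4 of 6 libraries lay below the untreated ones and 2, both replicate 3, above them. The log2 fold change was 1.23 ± 0.20 at 0.25 µM (edgeR adjusted p = 3.9e-05) and that from 0.25 to 0.5 µM was -1.50 ± 0.21 (adjusted p = 1.74e-05). Against untreated cells the values were 0.41 ± 0.20 at 0.15 µM, -0.27 ± 0.20 at 0.5 µM and -0.22 ± 0.20 at 1 µM, with adjusted p of 0.0947, 0.239 and 0.347. The calls between doses depended on single libraries: 0.25 against 0.15 µM (0.82) was lost without replicate 2 at 0.25 µM (0.70, adjusted p = 0.059), and 1 against 0.15 µM (-0.63) without replicate 1 or 2 at 1 µM (-0.57 and -0.49, adjusted p = 0.0688 and 0.0882). The call of 1 against 0.15 µM was also lost with TMM factors from genes of 10 CPM or more (-0.51, edgeR adjusted p = 0.0558). Limma on both FPKM scales lost it too (adjusted p = 0.0564 and 0.0603). Without replicate 3 at 0.5 µM, RUNX1 was called at 0.15 µM (0.41, adjusted p = 0.0436), as under 9 of 27 alternatives in all, and at 0.5 µM (-0.51, adjusted p = 0.0247). Without replicate 3 of both the 0.25 and 0.5 µM groups the value at 0.5 µM was -0.48 (adjusted p = 0.0121). The signs at 0.5 and 1 µM turned positive with library totals (0.14 at each dose).

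MYB, which sustains the growth of immature blood cells (chr6:135181308-135219173, plus strand), had 203, 205 and 207 CPM in untreated cells. It had 266, 323 and 296 CPM at 0.15 µM and 242, 224 and 257 CPM at 0.25 µM. It then fell to 26.8, 32.9 and 49.6 CPM at 0.5 µM and 27.5, 28.0 and 44.2 CPM at 1 µM. The libraries at 0.5 and 1 µM were all below 50 CPM and no group of the lower doses overlapped them. The log2 fold change from 0.25 to 0.5 µM was -2.72 ± 0.21 (edgeR adjusted p = 2.89e-08), and against untreated cells it was -2.49 ± 0.21 at 0.5 µM and -2.62 ± 0.21 at 1 µM (adjusted p = 5.85e-09 and 3.04e-09). The rise at 0.15 µM, 0.52 ± 0.20 (adjusted p = 0.0357), held in 3 of 3 libraries but was a weaker call. It was lost without untreated replicate 1, 2 or 3 (adjusted p = 0.0838, 0.083 and 0.0778) and without replicate 2 or 3 at 0.15 µM (0.111 and 0.0724), and with RLE factors and in DESeq2 (0.0533 and 0.0529). The value at 0.25 µM, 0.23 ± 0.20, was not called (adjusted p = 0.323), although all 3 libraries lay above the untreated ones. MYB was called higher there with library totals (0.77) and TMM factors from genes of 10 CPM or more (0.66). It was also called with at least 10 counts in every library (0.52) and on both FPKM scales by limma (0.64 and 0.74).

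MEIS1, a homeodomain partner of HOX proteins in stem cells and acute leukemia (chr2:66433452-66573869, plus strand), was scarce and rose to a plateau. It had 5.52, 5.25 and 3.44 CPM in the untreated libraries, which those at 0.15 µM overlapped with 6.47, 7.27 and 5.09 CPM. At 0.25 µM it had 9.83, 11.4 and 9.49 CPM, at 0.5 µM 10.3, 10.8 and 12.4 CPM and at 1 µM 12.7, 9.74 and 11.4 CPM, all above the untreated libraries. The log2 fold changes were 1.11 ± 0.21, 1.24 ± 0.21 and 1.25 ± 0.21 at these doses (edgeR adjusted p = 1.52e-04, 4.07e-05 and 3.6e-05) and 0.41 ± 0.21 at 0.15 µM (adjusted p = 0.116). The step from 0.15 to 0.25 µM (0.70, adjusted p = 0.0319) was lost without replicate 1 or 3 at 0.15 µM or replicate 1 or 2 at 0.25 µM (adjusted p = 0.0755, 0.101, 0.0519 and 0.108). Of its exon bases 13.3% lie under genes of the opposite strand, and since no strand setting is stated for the counting, reads of MEIS1 and of these genes cannot be told apart in the shared stretches.

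ERG, an ETS factor of stem cells and megakaryocytes (chr21:38380027-38661780, minus strand), was close to the detection limit. It had 1, 1 and 2 counts in the untreated libraries, 6, 10 and 18 counts at 0.15 µM and 16, 20 and 23 counts at 0.25 µM. At 0.5 µM it had 4, 0 and 10 counts and at 1 µM 11, 3 and 8 counts. The 0.15, 0.25 and 1 µM libraries lay above the untreated ones and those at 0.5 µM overlapped them. The log2 fold changes of 2.81 ± 0.90, 3.43 ± 0.88, 1.51 ± 0.97 and 2.20 ± 0.93 from 0.15 to 1 µM had edgeR adjusted p of 0.0138, 0.0023, 0.178 and 0.0438. The call at 0.15 µM was lost without replicate 3 of that dose (2.32, adjusted p = 0.064) and on both FPKM scales by limma (adjusted p = 0.407 and 0.271), and 0.5 µM became one without its replicate 2 (2.03, adjusted p = 0.0463). The call at 1 µM was lost without each of 9 of the 15 libraries in turn, namely untreated replicates 1, 2 and 3, replicate 2 at 0.15 µM, replicates 1, 2 and 3 at 0.25 µM and replicates 1 and 3 at 1 µM, with adjusted p from 0.0506 to 0.146. It was also lost with no filter on low counts, with only the libraries compared, with limma on voom values and with limma on log2(FPKM + 1) and log2(FPKM + 0.1) (adjusted p = 0.0682, 0.0518, 0.0983, 0.567 and 0.454). The fall from 0.25 to 0.5 µM, -1.92 ± 0.74 (adjusted p = 0.0583), was called with the replicate number as a block (-2.13, adjusted p = 0.044), without replicate 3 at 0.5 µM (-2.75, adjusted p = 0.0281), without replicate 3 of both the 0.25 and 0.5 µM groups (adjusted p = 0.0419), in DESeq2 (0.0372) and with limma on voom values (0.0203).

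**Figure D3:**
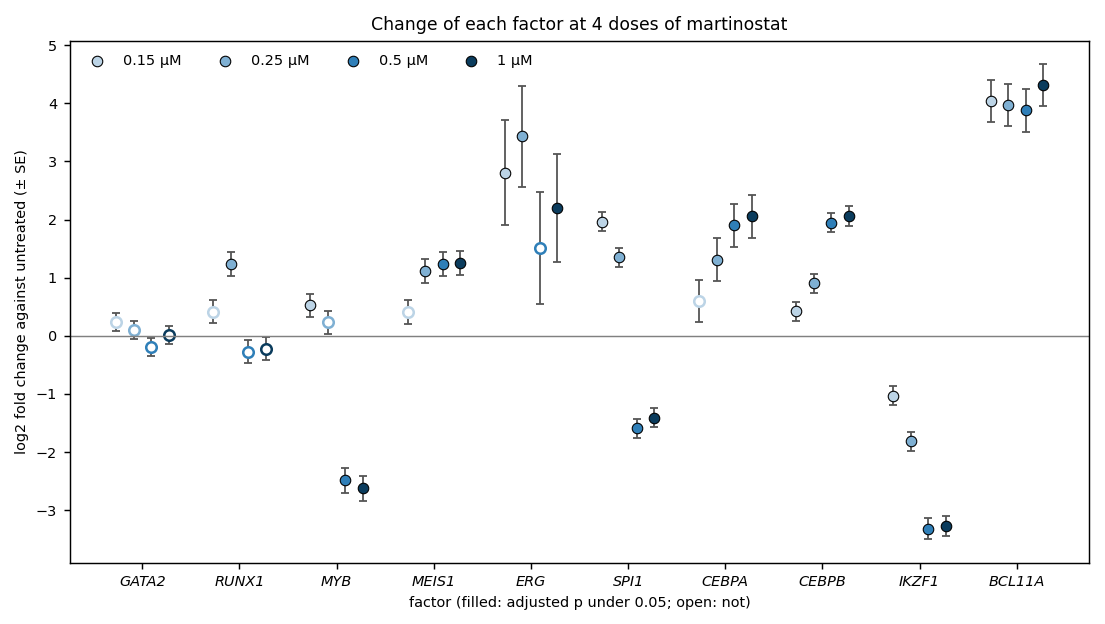
Log2 fold change of each factor against untreated cells at the 4 martinostat doses, from edgeR's quasi-likelihood fit with TMM factors. Bars are the SE, and filled points passed an adjusted p of 0.05 over all genes tested. CEBPA and CEBPB climb to 2.05 and 2.06 at 1 µM and IKZF1 descends to -3.28, whereas SPI1 changes sign from 1.96 at 0.15 µM to -1.41 at 1 µM.

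SPI1, the ETS factor that drives macrophage and granulocyte genes and opposes GATA1 (chr11:47354860-47378547, minus strand), moved in both directions. It had 35.2, 27.4 and 35.5 CPM in untreated libraries, 131, 122 and 129 CPM at 0.15 µM and 86.6, 95.2 and 68.5 CPM at 0.25 µM. At 0.5 µM it had 11.9, 11.9 and 8.86 CPM and at 1 µM 11.3, 11.4 and 14.2 CPM. Every library at the 2 lower doses lay above the untreated ones and every library at the 2 higher doses lay below them. Against untreated cells SPI1 was at 1.96 ± 0.16, 1.35 ± 0.16, -1.59 ± 0.17 and -1.41 ± 0.17 on the log2 scale from 0.15 to 1 µM (edgeR adjusted p = 1.5e-08, 8.49e-07, 9.97e-08 and 4.51e-07). The fall from 0.25 to 0.5 µM was -2.94 ± 0.17 (adjusted p = 8.87e-10). That from 0.15 to 0.25 µM was -0.61 ± 0.16 (adjusted p = 0.0173), a call lost without replicate 1 or 3 at 0.15 µM or replicate 3 at 0.25 µM (adjusted p = 0.0564, 0.0542 and 0.0778). It was also lost with only the libraries compared (-0.57, edgeR adjusted p = 0.0516).

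CEBPA, the leucine zipper factor without which granulocytes do not form (chr19:33299934-33302534, minus strand), rose with dose. It had 9.36, 8.19 and 9.59 CPM in the untreated libraries, and at 0.15 µM it had 16.2, 12.7 and 12.2 CPM. At 0.25 µM it had 28.8, 28.2 and 10.6 CPM, at 0.5 µM 43.3, 40.5 and 17.6 CPM and at 1 µM 29.4, 48.1 and 35.2 CPM. All treated libraries lay above all untreated ones, and replicate 3 at 0.25 µM and replicate 3 at 0.5 µM were low within their groups. The log2 fold changes were 0.60 ± 0.37, 1.31 ± 0.37, 1.90 ± 0.37 and 2.05 ± 0.37 from 0.15 to 1 µM, with edgeR adjusted p of 0.192, 0.00635, 3.88e-04 and 2.02e-04. Without replicate 3 of both the 0.25 and 0.5 µM groups, CEBPA was called at 0.15 µM (0.60, adjusted p = 0.00401) and in the steps from 0.15 to 0.25 µM (1.08, adjusted p = 1.96e-04) and from 0.25 to 0.5 µM (0.57, adjusted p = 0.0265), which were not called with all libraries (0.71 and 0.59, adjusted p = 0.229 and 0.243). Leaving out replicate 3 at 0.25 µM alone gave 1.06 (adjusted p = 0.0309) for the first of these steps but 0.24, not called, for the second. Leaving out replicate 3 at 0.5 µM alone gave 0.90 (adjusted p = 0.0356) for the second. Genes of the opposite strand lie over 43.9% of its exon bases, and reads in that stretch cannot be assigned without a stated strand setting. CEBPA-DT, the divergent transcript, was called higher at 0.15 µM (1.29 ± 0.28, adjusted p = 8.80e-04) and not at 1 µM (0.40 ± 0.29, adjusted p = 0.222).

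CEBPB, the C/EBP factor of macrophages and of stress responses (chr20:50190830-50192668, plus strand), rose along the same doses with less spread. It had 43.5, 45.3 and 39.0 CPM in the untreated libraries, 70.5, 50.2 and 50.1 CPM at 0.15 µM and 80.8, 92.2 and 66.2 CPM at 0.25 µM. At 0.5 µM it had 166, 190 and 138 CPM and at 1 µM 176, 180 and 175 CPM. No treated library overlapped the untreated ones, and the 6 libraries at 0.5 and 1 µM lay above all others. Against untreated cells CEBPB was at 0.42 ± 0.16, 0.90 ± 0.16, 1.95 ± 0.17 and 2.06 ± 0.17 on the log2 scale from 0.15 to 1 µM (edgeR adjusted p = 0.0392, 1.03e-04, 7.12e-09 and 3.53e-09). The step from 0.25 to 0.5 µM was 1.04 ± 0.16 (adjusted p = 7.64e-05). The call at 0.15 µM was lost without untreated replicate 1, 2 or 3, replicate 1 at 0.15 µM or replicate 1 at 1 µM (adjusted p = 0.0747, 0.0584, 0.135, 0.258 and 0.0502), and with RLE factors, DESeq2 and limma on voom values (adjusted p = 0.0611, 0.0616 and 0.0506). From 0.15 to 0.25 µM the value of 0.48 (adjusted p = 0.0596) became a call under 12 of 27 alternatives. Among these were RLE factors, library totals and TMM factors from genes of 10 CPM or more (0.57, 0.63 and 0.63). DESeq2 (0.57, adjusted p = 0.0106), at least 10 counts in every library (0.59) and limma on both FPKM scales called it too. It was also called without replicate 1 at 0.15 µM, replicate 3 at 0.25 µM or replicate 3 at 0.5 µM (edgeR adjusted p = 0.023, 0.0323 and 0.0282). CEBPB-AS1, whose exons lie over 12.6% of those of CEBPB, was lower at 1 µM (-2.30 ± 0.72, adjusted p = 0.00916).

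The balance within the myeloid factors therefore changed with dose. Per kilobase of merged exons the CEBPB level was 1.37, 1.83 and 1.22 of the SPI1 level in untreated libraries and 0.599, 0.458 and 0.430 of it at 0.15 µM. It was 1.04, 1.07 and 1.07 at 0.25 µM, 15.5, 17.7 and 17.3 at 0.5 µM and 17.3, 17.5 and 13.7 at 1 µM. CEBPA stayed below SPI1 on this scale up to 0.25 µM, at 0.0738 to 0.261 of its level, and exceeded it at 0.5 and 1 µM, at 1.56 to 3.30.

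IKZF1 (chr7:50304068-50405101, plus strand) was the single factor that was lower at every dose. It had 142, 160 and 170 CPM in untreated libraries, 80.3, 85.7 and 65.0 CPM at 0.15 µM and 38.7, 53.9 and 41.6 CPM at 0.25 µM. At 0.5 µM it had 15.1, 16.4 and 15.7 CPM and at 1 µM 17.1, 13.0 and 18.5 CPM. The untreated, 0.15, 0.25 and 0.5 µM groups did not overlap, and the 0.5 and 1 µM groups did. Its changes against untreated cells were -1.03 ± 0.16, -1.81 ± 0.16, -3.32 ± 0.17 and -3.28 ± 0.17 on the log2 scale from 0.15 to 1 µM (edgeR adjusted p = 2.92e-05, 2.18e-08, 8.58e-12 and 9.84e-12). The steps from 0.15 to 0.25 µM (-0.78 ± 0.16, adjusted p = 0.00378) and from 0.25 to 0.5 µM (-1.51 ± 0.16, adjusted p = 1.31e-06) were called as well, and none of these calls was lost under any of the 27 alternatives tried for each.

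BCL11A (chr2:60450520-60554467, minus strand) went from nearly no reads to a low level at all 4 doses. It had 2, 6 and 6 counts in the untreated libraries, or 0.0818, 0.232 and 0.235 CPM. It had 3.66, 2.61 and 3.03 CPM at 0.15 µM, 3.52, 2.43 and 2.90 CPM at 0.25 µM, 2.38, 2.76 and 3.13 CPM at 0.5 µM and 3.41, 3.63 and 4.15 CPM at 1 µM. All treated libraries were more than 10 times the highest untreated one. On the log2 scale these were changes of 4.04 ± 0.36, 3.97 ± 0.36, 3.88 ± 0.36 and 4.31 ± 0.36 from 0.15 to 1 µM (edgeR adjusted p = 3.43e-08, 2.41e-08, 2.12e-08 and 4.58e-09). From 0.15 to 1 µM the difference was 0.27 ± 0.27 (adjusted p = 0.449), with a 95% interval of -0.30 to 0.83. The fetal globin genes HBG1 and HBG2, which BCL11A silences in adult red cells, and the adult globin gene HBB were not called at 0.15 µM. They were at -0.54 ± 0.43, -0.76 ± 0.39 and -0.57 ± 0.46 there (edgeR adjusted p = 0.321, 0.119 and 0.32). At 1 µM HBG2 was at -0.99 ± 0.39 (adjusted p = 0.0364), HBB at -1.72 ± 0.49 (adjusted p = 0.00453) and HBG1 at -0.41 ± 0.43 (adjusted p = 0.429). HBG1 and HBG2 are near-identical copies whose reads can be split between them, and the call of HBG2 was lost under 13 of 27 alternatives, so both are uncertain. Other genes of the same strand also lie over 55.65% of the exon bases of HBG2 and 14.86% of those of HBG1.

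Of the steps between neighbouring doses, that from 0.25 to 0.5 µM had the most calls. From 0.15 to 0.25 µM 4 of 10 factors were called, 2 higher (RUNX1 and MEIS1) and 2 lower (SPI1 and IKZF1), beside 12.3% of all genes, of which 4.96% were higher and 7.32% lower. The libraries of 5 factors did not overlap in this step, as for 30.6% of all genes. This count was 2 without replicate 3 at 0.15 µM and 2 without replicate 2 at 0.25 µM. From 0.25 to 0.5 µM 5 were called, CEBPB higher and RUNX1, MYB, SPI1 and IKZF1 lower, beside 30.4% of all genes, of which 14.4% were higher and 16% lower. Here 6 factors did not overlap, as did 38.6% of all genes. The labels do not say whether equal replicate numbers belong together. Libraries of equal number deviated together between these doses, where replicate 3 stood apart in both groups. With the number as a block 6 factors were called, ERG being added. Without replicate 3 of both the 0.25 and 0.5 µM groups 8 factors were called. From 0.5 to 1 µM no factor was called, with none at an unadjusted p under 0.05 in edgeR or DESeq2, and 0% of all genes were called, with 372 at an unadjusted p under 0.05 in edgeR, 445 in DESeq2, 0 called by DESeq2 and 1 called by limma on the FPKM. In 1 factor, BCL11A, the libraries did not overlap, as in 5.63% of all genes. The 95% intervals of these differences still spanned -0.12 to 0.52 for GATA2 and -0.56 to 0.29 for MYB on the log2 scale. From 0.15 to 1 µM 7 factors were called, 3 higher (MEIS1, CEBPA and CEBPB) and 4 lower (RUNX1, MYB, SPI1 and IKZF1), beside 44.5% of all genes, of which 21.5% were higher and 23.1% lower, and 8 did not overlap, as for 58.7%. MYB and SPI1 were called higher at 0.15 µM, lower at 1 µM and lower between these doses, as were 1.43% of all genes tested. RUNX1 and SPI1 were called higher at 0.25 µM and lower from 0.25 to 0.5 µM, as were 5.56% of all genes.

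**Figure D4:**
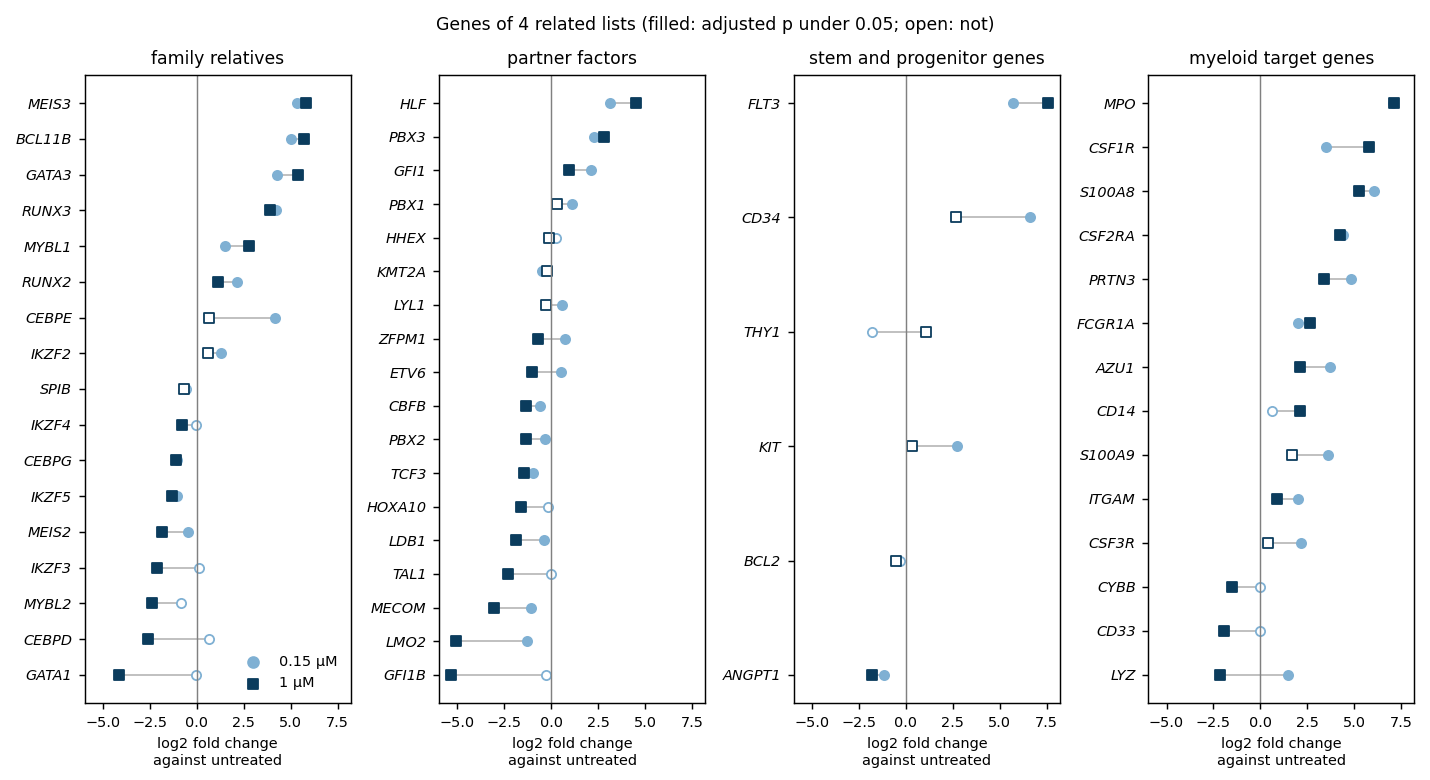
Log2 fold change against untreated cells at 0.15 µM (circles) and 1 µM (squares) for the tested genes of 4 lists, ordered by the value at 1 µM. Filled symbols passed an adjusted p of 0.05 over all genes tested. GATA1, LMO2 and GFI1B reach -4.12, -5.09 and -5.32 at 1 µM, and CSF1R reaches 5.80.

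Some family relatives of the factors moved as their relative did and others did not. Of 19 relatives 17 were tested, of which 8 were higher and 3 lower at 0.15 µM and 6 higher and 8 lower at 1 µM, with medians of 0.66 and -0.68 on the log2 scale beside 0.28 and 0.32 over all genes. Genes with a mean of 10 CPM or more had medians of -0.28 and -0.39. Over all genes tested 31.9% were higher and 19.4% lower at 0.15 µM, and 38.8% and 27.5% at 1 µM. With library totals the counts of relatives were 10 higher and 2 lower at 0.15 µM and 7 higher and 7 lower at 1 µM. MEIS3, a relative of MEIS1, rose from 1.46 ± 0.51 CPM (SD, n = 3) to 81.8 ± 14.5 CPM at 1 µM, a log2 fold change of 5.80 ± 0.26, and GATA3, the T cell relative of GATA2, from 0.104 ± 0.120 to 4.53 ± 0.31 CPM (5.37 ± 0.51). CEBPD, another C/EBP factor of macrophages, was at -2.61 ± 0.33 at 1 µM (adjusted p = 1.28e-06), opposite in sign to CEBPA and CEBPB, and at 0.66 ± 0.30 at 0.15 µM (adjusted p = 0.0703).

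The partner factors, which bind DNA or bridge complexes with the 10, had more lower than higher calls at the high dose. Of 19 partners 18 were tested, of which 7 were higher and 7 lower at 0.15 µM and 3 higher and 11 lower at 1 µM, with medians of -0.10 and -1.17. Among all 23711 genes tested, 31.9% rose and 19.4% fell at 0.15 µM, and 38.8% rose and 27.5% fell at 1 µM, with medians of 0.28 and 0.32. Among genes with a mean of 10 CPM or more the medians were -0.28 and -0.39. The split of the partners at 0.15 µM turned to 8 higher and 3 lower with library totals, and 9 were called there without replicate 1 at 0.15 µM. LMO2, the bridge between GATA factors and TAL1, fell from 169 ± 7.83 CPM in untreated cells to 69.6 ± 3.75 at 0.15 µM and 4.93 ± 0.0737 at 1 µM (-5.09 ± 0.16, adjusted p = 1.26e-14). GFI1B, a repressor of erythroid and megakaryocyte progenitors, went from 148 ± 9.98 to 3.68 ± 0.78 CPM at 1 µM (-5.32 ± 0.17, adjusted p = 2.31e-14). HLF, a stem cell leucine zipper factor, and PBX3, the partner of MEIS1, were higher at 1 µM by 4.49 ± 0.56 and 2.81 ± 0.29 but stayed at 3.07 ± 0.85 and 5.10 ± 0.58 CPM.

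Of the 16 myeloid target genes 14 were tested, and 11 were higher and 0 lower at 0.15 µM, 9 higher and 3 lower at 1 µM. Over all genes tested 31.9% were higher and 19.4% lower at 0.15 µM, and 38.8% and 27.5% at 1 µM. Of the 16, 4 had no untreated counts, which leaves no room for a lower call. With at least 10 counts required in every library, 3 were higher and 0 lower at 0.15 µM, and 2 higher and 3 lower at 1 µM. The medians of the 14 were 2.83 and 2.09 as fitted, and 2.50 and 2.07 with MPO and S100A8, which had no untreated counts, set to the bound that 3 counts over the group allow. The directions at 0.15 µM were the same under all 3 other scalings. CSF1R, the macrophage growth factor receptor, rose from 0.457 ± 0.400 CPM to 5.14 ± 0.77 at 0.15 µM and 25.9 ± 4.17 at 1 µM (5.80 ± 0.38, adjusted p = 2.65e-10). CSF2RA, a receptor subunit for GM-CSF, rose from 0.144 ± 0.112 to 3.14 ± 0.44 CPM at 0.15 µM (4.40 ± 0.41) and was at 2.80 ± 0.19 CPM at 1 µM. LYZ, the lysozyme of myeloid cells, had 7.81 ± 0.84, 21.4 ± 2.87 and 1.76 ± 0.52 CPM in untreated cells and at 0.15 and 1 µM, higher and then lower as SPI1 was. Its call at 1 µM was lost with limma on log2(FPKM + 1) (adjusted p = 0.0632). A gene of the opposite strand lies over 34.7% of the exon bases of LYZ. Reads in that stretch cannot be assigned without a stated strand setting. CD33, a myeloid surface protein, was not called at 0.15 µM (-0.05 ± 0.13, adjusted p = 0.769) and was at -1.97 ± 0.13 at 1 µM (adjusted p = 2.08e-10).

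Of 8 stem and progenitor genes 6 were tested, and 3 were higher and 1 lower at 0.15 µM, 1 higher (FLT3, a cytokine receptor of progenitors) and 1 lower at 1 µM. The shares of all genes tested were 31.9% higher and 19.4% lower at 0.15 µM, and 38.8% and 27.5% at 1 µM. The medians of the 6 were 1.20 and 0.69 as fitted, and 1.09 and 0.16 with CD34 and FLT3, which had no untreated counts, set to their bounds. ANGPT1, a stem cell niche ligand, fell from 33.7 ± 2.71 to 9.70 ± 1.27 CPM (-1.80 ± 0.19, adjusted p = 1.13e-07).

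The genes whose level followed each factor most closely over the 15 libraries are given as a description, since all of them share the 5 groups and the libraries. Among up to 10128 genes whose mean was 10 CPM or more, IKZF1 was closest to LEPR and ABCC4 (Pearson's r = 0.997 and 0.996), MYB to ERMAP and PDE4DIP (0.994 and 0.993) and SPI1 to METTL7A and SQLE (0.993 and 0.991). BCL11A was closest to CACNA1H and TMEM59L (0.989 and 0.987), CEBPB to RHOB and TOM1L2 (0.988 and 0.988), CEBPA to PIMREG and AMZ2 (0.977 and 0.975) and MEIS1 to THBS1 and PDP1 (0.963 and 0.957). RUNX1 was closest to CASP10 and to HHEX, a homeodomain factor among the partners (0.926 and 0.925). GATA2, which varied least, reached 0.881 with IRF2BPL and 0.867 with RRAGD, and ERG, with its few counts, 0.856 with KHNYN and 0.848 with DHRS4-AS1. No factor was among the 2 closest genes of another factor, but MEIS1, ERG and BCL11A averaged under 10 CPM and could not be.

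In order of level per kilobase of merged exons, GATA2 (52.3 ± 1.72 CPM per kb, SD, n = 3), MYB (37.3 ± 0.36) and CEBPB (23.2 ± 1.77) led in untreated cells, followed by SPI1 (16.0 ± 2.25) and IKZF1 (14.4 ± 1.31). Merged exons join all annotated exons of a gene, so this order depends on the length used. Before division by length IKZF1 averaged 157 CPM in untreated cells, CEBPB 42.6 CPM and SPI1 32.7 CPM. At 1 µM CEBPB led with 96.4 ± 1.54 CPM per kb, followed by GATA2 (52.7 ± 3.10) and CEBPA (14.4 ± 3.69). MYB (6.05 ± 1.73), RUNX1 (6.09 ± 1.67) and SPI1 (6.04 ± 0.81) lay within 1 SD of each other there, and IKZF1 was at 1.49 ± 0.26. ERG and BCL11A were the scarcest of the 10 in both groups, at 0.00695 ± 0.00294 and 0.00746 ± 0.00357 CPM per kb in untreated cells and 0.0341 ± 0.0191 and 0.152 ± 0.0156 at 1 µM.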

How the data were processed

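Poly(A) RNA of the 15 cultures was sequenced as paired ends from directional libraries. The authors trimmed reads with Trim Galore 0.6.10, aligned them to hg38 with HISAT2 2.2.1 and counted them per GENCODE gene with featureCounts 1.5.3. The deposited count table holds raw counts of 60649 genes, and the deposited FPKM are fragments scaled by the authors for gene length and library size, with the genomic span of the gene as its length in the genes checked, so they were used in alternatives and not to compare genes. The strand setting of the counting is not given in the sources used here.

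Symbols were matched by Ensembl identifier with the version dropped (60463 of 60649 genes). Positions and exon lengths came from GENCODE v44 on hg38. Promoters came from RefSeq on GRCh38.p14, with entries for 9 of 10 factors, and SPI1 had none.

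Counts were fitted in edgeR 4.0.16 (R 4.3.3) with filterByExpr, which kept 23711 genes, TMM factors, the group as the only term and the robust quasi-likelihood F test over all 15 libraries (10 residual degrees of freedom). The code was tested on simulated data. Alternatives were RLE factors, library totals, TMM from genes of 10 CPM or more, other filters, DESeq2 1.42.0, limma 3.58.1 on voom values and on log2(FPKM + 1) and log2(FPKM + 0.1), only the libraries compared, a replicate block, and each library left out in turn. Leaving out replicate 3 at 0.25 µM together with replicate 3 at 0.5 µM was added after seeing the data. The factors and gene lists were chosen with earlier results of these data known, and 2 genes of the lists are not reported here. All 10 factors are named, with the 2 highest and 2 lowest called genes of each other list at 1 µM with a mean of at least 1 CPM, all markers and globin genes, antisense and divergent partners, and the 2 genes most alike to each factor.

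Replicate numbers come from the labels, which name independent biological replicates and do not say that a number is shared between doses. Deviations from the group mean of libraries with the same number correlated by 0.266, 0.268 and 0.579 between 0.25 and 0.5 µM. Over all 30 such pairs of libraries the correlation ranged from -0.0663 to 0.579, and 3 pairs exceeded 0.1. Deviations within a group cancel out, so these 3 values are not independent, and replicate 3 of both groups stood apart. Libraries with different numbers reached 0.236 for replicate 2 between these doses, and 0.148 between 0.15 and 0.25 µM. The correlations thus cannot decide whether a number is shared. The numbers were read as possible pairs between 0.25 and 0.5 µM alone. The main fit did not use them, and the replicate block, fitted over all 15 libraries, was an alternative only.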

Additional observations from a re-analysis of the deposited data

Results flagged for a closer look

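SPI1 and MYB differed between doses in the sign of their change against untreated cells. SPI1 was at 1.96 at 0.15 µM and -1.41 at 1 µM on the log2 scale, a difference of -3.37 ± 0.18 that edgeR called (adjusted p = 7.19e-11), with 3 of 3 libraries above and then 3 of 3 below the untreated ones. MYB was at 0.52 and -2.62, a difference of -3.15 ± 0.22 (edgeR adjusted p = 1.75e-09), again in 3 of 3 libraries each way. The calls of both signs held for SPI1 under all 27 alternatives. For MYB the call at 0.15 µM was lost under RLE factors (0.48, adjusted p = 0.0533), in DESeq2 (0.48, adjusted p = 0.0529), without any 1 of the untreated replicates 1, 2 and 3 (0.52, 0.52 and 0.53, adjusted p = 0.0838, 0.083 and 0.0778) and without replicate 2 or 3 at 0.15 µM (0.46 and 0.52, adjusted p = 0.111 and 0.0724), while the difference between the doses stayed called.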

How the results depend on the processing

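Over 27 alternatives, 449 of 458 counts of called genes stayed within 1.5 times the value given, and of 2944 values of single genes 2751 kept their direction and their side of the threshold, 63 lost and 83 gained a call and 47 changed sign. Precision is limited by 3 replicates a group and, for ERG and BCL11A, by few counts. Of the factors, 10 were called at 0.15 µM with library totals and 10 with TMM factors from genes of 10 CPM or more, in place of 6, which moved with the median of all genes, and 8 in place of 5 between 0.25 and 0.5 µM without replicate 3 of both the 0.25 and 0.5 µM groups. With at least 10 counts required in every library, which leaves fewer listed genes in the test, 2 stem and progenitor genes and 3 myeloid target genes were called at 0.15 µM and 5 myeloid target genes at 1 µM. Leaving out 1 library at a time gave 2 to 5 factors between 0.15 and 0.25 µM and 9 to 14 partner factors at 0.15 µM. With the replicate block 6 factors were called between 0.25 and 0.5 µM, where the block added ERG (-2.13, adjusted p = 0.044). Between 0.15 and 0.25 µM 5 were called, where it added CEBPB (0.48, adjusted p = 0.0444). Libraries of equal number did not deviate together between 0.15 and 0.25 µM, which cannot show whether they were paired. The block changed no other call of a factor.

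Signs changed only in values that were not called, and the cause was not tested. With library totals, TMM factors from genes of 10 CPM or more, at least 10 counts in every library, limma on log2(FPKM + 1) and limma on log2(FPKM + 0.1), in this order, GATA2 at 0.5 µM was at 0.19, 0.22, 0.10, 0.17 and 0.17, and RUNX1 at 0.14, 0.16, 0.022, 0.0096 and 0.044 at 0.5 µM and 0.14, 0.16, 0.054, 0.0093 and 0.051 at 1 µM. In the same order at 0.15 µM, GATA1 was at 0.29, 0.19, 0.11, 0.28 and 0.29 and CD33 at 0.31, 0.21, 0.13, 0.25 and 0.30. GFI1B at 0.15 µM was at 0.070 with library totals and 0.050 and 0.067 on the FPKM scales. From 0.15 to 0.25 µM, GATA2 was at 0.020 with library totals, 0.021 with TMM factors from genes of 10 CPM or more, 0.013 and 0.014 on the FPKM scales and 0.056 without replicate 3 of both the 0.25 and 0.5 µM groups. BCL11A was at 0.023 with RLE factors, 0.10 with library totals, 0.093 with TMM factors from genes of 10 CPM or more, 0.023 in DESeq2 and 0.0030 and 0.023 on the FPKM scales. MEIS1 from 0.25 to 0.5 µM was at -1e-04 and -0.0052 on the FPKM scales. Leaving out 1 library at a time, the value ran from -0.040 to 0.051 for GATA2 at 1 µM, from -0.228 to 0.035 for GATA2 and -0.21 to 0.067 for BCL11A from 0.15 to 0.25 µM and from -0.21 to 0.049 for BCL11A from 0.25 to 0.5 µM.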
